A study of Sus scrofa with 6 samples.

Results

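The S100A genes were followed in the endometrium, the inner lining of the uterus, of 6 Erhualian sows, a Chinese breed of pig, on day 12 of gestation. Members were the rows of the expression table whose Ensembl pig gene identifier carried 1 of 10 listed S100A symbols. A row was found for 8 of the 10, out of 14262 genes in all: S100A8, S100A12, S100A10, S100A11, S100A6, S100A4, S100A14 and S100A1. S100A13 and S100A16 matched no row and were not analysed here. The study compared 3 high prolific with 3 low prolific sows, each library coming from 1 numbered sow and untreated as far as the labels say. They are named high 1 to high 3 and low 1 to low 3, and their parities, the number of litters borne, were 5, 8 and 8 in the high and 7, 7 and 5 in the low prolific sows. The series title sets litter size beside calcium ion concentration, which is the question that calcium-binding proteins bear on.

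S100 proteins are small proteins with paired EF-hand loops, most of which bind calcium, change shape and then attach to a target protein. Some act mainly inside the cell, on annexins, myosin or the cytoskeleton. Others, the alarmins, are released in inflammation and act on surface receptors such as TLR4 and the receptor for advanced glycation end products. In the uterus the family is of interest because secretion, epithelial remodelling and the entry of leukocytes all proceed during implantation, and because alarmins are made by neutrophils and monocytes and can also be induced in epithelium.

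All values are normalized read counts, for which no division by transcript length is stated, so levels are compared between sows for 1 gene and not between genes. The columns summed to between 22663087 and 24270245 per library, sums set by the normalization and not depths. Sequencing depth was unknown, and no counting interval can be given. Defining markers of epithelium and stroma were present in every library, among them EPCAM, an epithelial adhesion molecule, at 7896 to 11765 and the collagen gene COL3A1 at 202887 to 304833. Each fold change is the high minus the low prolific mean of log2(value + 1), with limma's moderated standard error (SE) and 95% interval. P-values adjusted by the Benjamini-Hochberg method cover all 14262 genes, of which limma called 0 at an adjusted p under 0.05, and 1129 lay at an unadjusted p under 0.05, 7.92% of them all. Of the 8 members 0 were called, against a background of 0% of all genes, so every difference below is a value that did not pass the test. The smallest adjusted p of any gene was 0.493.

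S100A8, a subunit of calprotectin, and S100A12, a ligand of the receptor for advanced glycation end products, were far higher in low 2 and low 3 than in the other 4 sows. S100A8 was at 713, 2.22 and 113 in high 1, high 2 and high 3, and at 85.2, 5414 and 10857 in low 1, low 2 and low 3. S100A12 was at 582, 3.97 and 170 in the high prolific sows and at 169, 7533 and 5283 in the low prolific sows. The remaining low prolific sow, low 1, fell between high 2 and high 3 for both genes, so the groups overlapped. The smaller of the values in low 2 and low 3 exceeded the largest of the other 4 sows 7.59-fold for S100A8 and 9.08-fold for S100A12. In whole tissue, fewer cells of a type and less RNA per cell cannot be told apart.

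The range between sows of the same group was wider than the distance between the group means of log2 values, which was 26.8-fold for S100A8 and 23.9-fold for S100A12. S100A8 ranged 322-fold within the high and 127-fold within the low prolific sows, and S100A12 ranged 147-fold and 44.6-fold. Over the 6 sows S100A8 spanned 4898-fold, or 11.72 log2 units, and S100A12 spanned 1897-fold, where the median gene spanned 0.65 log2 units.

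The mean of S100A8 was 276 ± 382 in the high and 5452 ± 5386 in the low prolific group (SD, n = 3), a log2 fold change of -4.75 ± 2.51 (SE) with an interval from -10.79 to 1.30 (limma adjusted p = 0.657). S100A12 averaged 252 ± 298 and 4328 ± 3774, a log2 fold change of -4.58 ± 2.14 with an interval from -9.75 to 0.59 (limma adjusted p = 0.651). These are the widest estimates among the members and also the least certain. Without high 2, in which both genes were near 0, the log2 fold changes were -2.59 and -2.58. Without low 1 they were -6.90 and -6.32, and without low 2 and low 3 together they were -0.43 and -1.10.

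S100A8 and S100A12 followed each other closely from sow to sow. The order of the lowest 4 sows was identical (high 2, low 1, high 3, high 1), and only the top pair changed places, with low 3 leading for S100A8 and low 2 for S100A12. The ratio of S100A8 to S100A12 within a library was 1.22, 0.558 and 0.666 in high 1 to high 3 and 0.504, 0.719 and 2.06 in low 1 to low 3. It thus varied over a few fold while each gene varied over more than 1000. On centred log2 values, taken as log2(value + 1) less its average across all sows for that gene, the root mean square distance between both genes was 0.68. From S100A8 to the 6 other members that distance, which grows with how widely a gene varies, lay between 3.62 (S100A10) and 4.23 (S100A1).

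Parity was not balanced between the groups, since parity 8 occurred only in high and parity 7 only in low prolific sows. At parity 5, S100A8 was at 713 in high 1 and 10857 in low 3, each the highest of its group. At parity 7 it was at 85.2 and 5414, and at parity 8 at 2.22 and 113. With parity as a covariate the log2 fold change was -3.53 for S100A8 and -3.69 for S100A12.

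**Figure D1:**
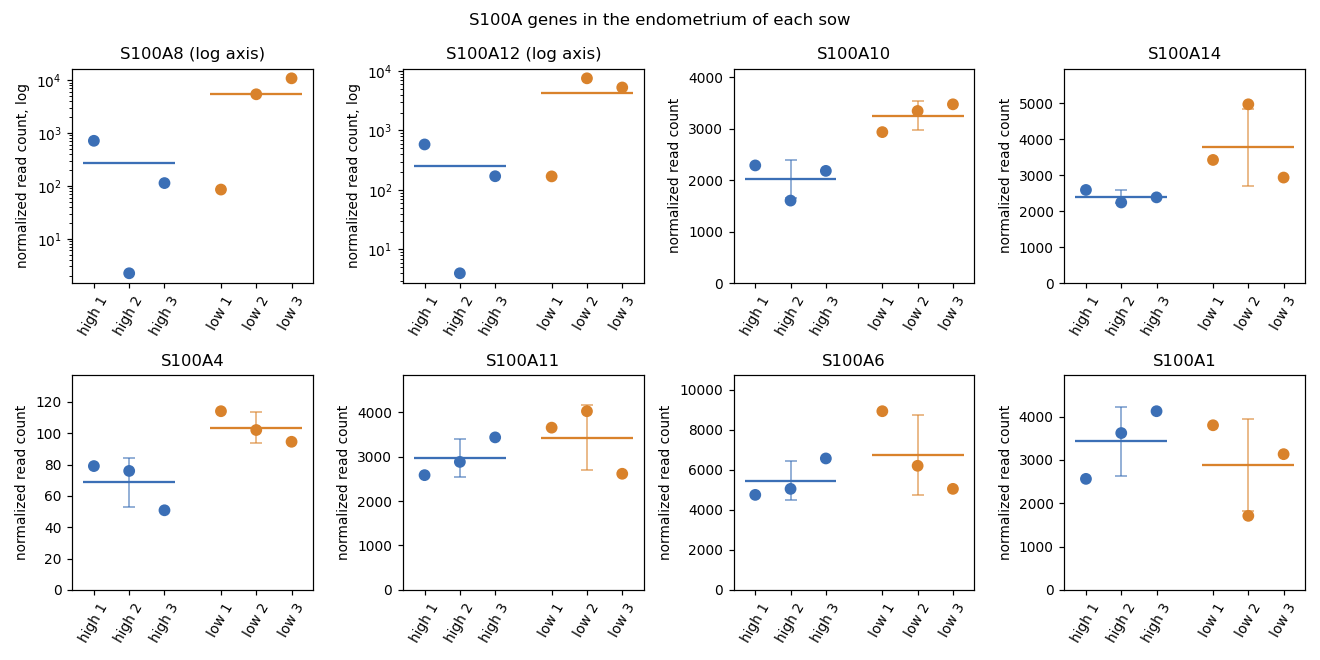
Normalized read counts of the 8 S100A genes by sow, high prolific in blue and low prolific in orange; points are sows, horizontal lines are group means of 3, error bars are SD on the linear panels, and S100A8 and S100A12 have log axes without error bars. S100A8 reaches 5414 and 10857 in low 2 and low 3 and 2.22 in high 2, while S100A10, S100A14 and S100A4 have all 3 high prolific sows below all 3 low prolific sows.

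Among the 6 broadly expressed members, 5 lay lower in high prolific sows and 1 higher. Their log2 fold changes had a median of -0.44, beside -0.002 over all genes and -4.66 for the pair of alarmins. In 3 of the 8 members, S100A10, S100A14 and S100A4, all 3 high prolific sows lay below all 3 low prolific sows, where 6.32% of all genes did so, and in 0 of the 8 did all 3 lie above, as in 7.18% of all genes. The same 3 had an unadjusted p under 0.05 in that direction, as did 4.09% of all genes. The members were chosen with results of these data known, so these counts are a description.

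S100A10, also called p11, has lost calcium binding and forms a tetramer with annexin A2 that brings channels and plasminogen activators to the cell surface. It was at 2284, 1601 and 2178 in high 1 to high 3 and at 2931, 3341 and 3471 in low 1 to low 3. The low prolific sows stood close together, with an SD of log2 values of 0.13 against 0.28 in the high prolific sows, and low 1 was on the side of the other low prolific sows, unlike its place for the alarmins. The means were 2021 ± 367 and 3248 ± 282 (SD, n = 3), 1.62-fold lower in high prolific sows, with a log2 fold change of -0.70 ± 0.16 (SE) and an interval from -1.09 to -0.31. This was the gene at rank 91 of 14262 by unadjusted p (0.00426), and its limma adjusted p was 0.619. The log2 fold change stayed between -0.79 and -0.54 with any single sow left out and was -0.55 without low 2 and low 3.

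S100A14 is a member found mainly in epithelia. Its values were 2589, 2241 and 2383 in the high and 3424, 4972 and 2934 in the low prolific sows. The high prolific sows were nearly equal, and the low prolific sows spread upwards from them, led by low 2. The log2 fold change was -0.62 ± 0.20 (SE), with an interval from -1.10 to -0.13 and a limma adjusted p of 0.619. Without low 2 it was -0.40, and without low 3 it was -0.78.

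S100A4, which binds non-muscle myosin and is known from fibroblasts and migrating cells, was at 79.0, 75.9 and 50.8 in the high and 114, 102 and 94.5 in the low prolific sows. High 3 was the lowest sow and low 1 the highest. The log2 fold change was -0.61 ± 0.24 (SE), with an interval from -1.19 to -0.03 and a limma adjusted p of 0.629. Without high 3 it was -0.41. Its unadjusted limma p of 0.0422 rose to 0.0585 with columns scaled to equal sums and to 0.0739 with parity as a covariate.

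S100A11, a partner of annexin A1, and S100A6, or calcyclin, overlapped between the groups. S100A11 was at 2583, 2881 and 3433 in the high and 3652, 4022 and 2614 in the low prolific sows, with low 3 among the lowest. Its log2 fold change of -0.20 ± 0.19 (SE) had an interval from -0.67 to 0.27. S100A6 was at 4750, 5050 and 6571 in the high and 8932, 6204 and 5051 in the low prolific sows. Low 1, near the bottom for the alarmins, was the highest sow for S100A6. Its log2 fold change of -0.28 ± 0.24 (SE), with an interval from -0.85 to 0.30, was -0.051 without low 1 and -0.46 without low 3. That of S100A11 was -0.069 without low 2 and -0.38 without low 3.

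S100A1, known from heart and skeletal muscle for binding the calcium release channel and the calcium pump of the reticulum, was the member that lay higher in high prolific sows. It was at 2562, 3619 and 4123 in the high and 3799, 1709 and 3132 in the low prolific sows. Low 2, the leading sow for S100A12, S100A11 and S100A14, was the lowest for S100A1. The log2 fold change of 0.30 ± 0.33 (SE), with an interval from -0.49 to 1.10, was 0.54 without low 1 and turned to -0.034 without low 2. S100A1 overlaps S100A13 in the RefSeq annotation of Sscrofa11.1. Whether counting used strand is not given in the sources used here. Reads of these neighbours may have been mixed or dropped, and the S100A1 values are uncertain.

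**Figure D2:**
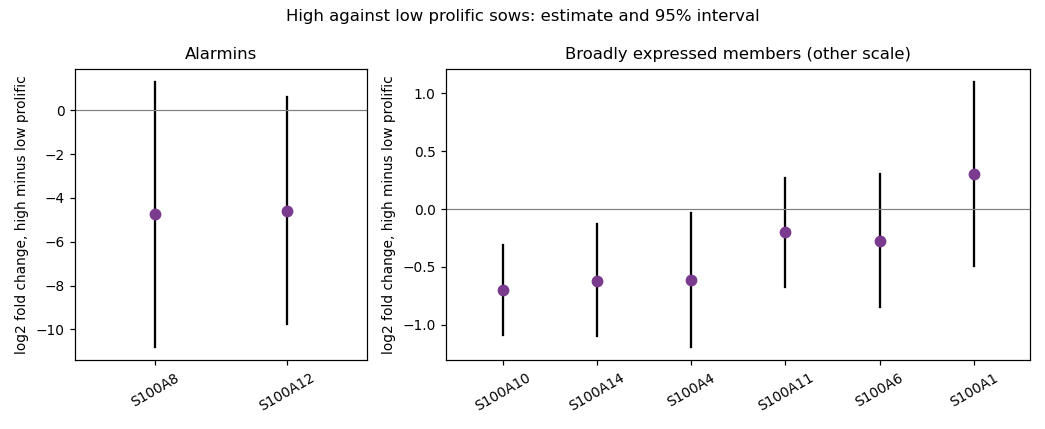
Log2 fold change, high minus low prolific, of the 8 S100A genes with its 95% interval from limma; points are estimates, lines intervals, and the panels have different vertical scales. The intervals of S100A10, S100A14 and S100A4 end below 0 (at -0.31, -0.13 and -0.03) before adjustment over all genes, while those of S100A8 and S100A12 span more than 10 log2 units and include 0.

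Averaged together, the broadly expressed members did not share the sow pattern of the alarmins. The mean centred log2 value of S100A8 and S100A12 was 0.85, -6.49 and -1.36 in high 1 to high 3 and -1.56, 4.16 and 4.40 in low 1 to low 3. That of the 6 broad members was -0.21, -0.22 and -0.09 in the high and 0.33, 0.17 and 0.02 in the low prolific sows. Low 1 was thus the highest sow for the mean of the broad members and the second lowest for that of the alarmins. Taken singly, S100A10 ordered the sows as S100A8 did apart from low 1. Within the high prolific sows, the SD of log2 values was 3.96 for S100A8 and 3.57 for S100A12, and between 0.10 (S100A14) and 0.35 for the broad members, where the median gene had 0.18. Within the low prolific sows it was 3.77 and 3.02 for the alarmins, between 0.13 (S100A10) and 0.60 (S100A1) for the broad members and 0.24 for the median gene.

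Among the broad members themselves, the closest pair over the 6 sows was S100A11 with S100A6, at a root mean square distance of 0.20 on centred log2 values. S100A10 with S100A14 came next at 0.26. S100A1 stood farthest from the rest, at 0.46 from S100A6 and 0.76 from S100A14.

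**Figure D3:**
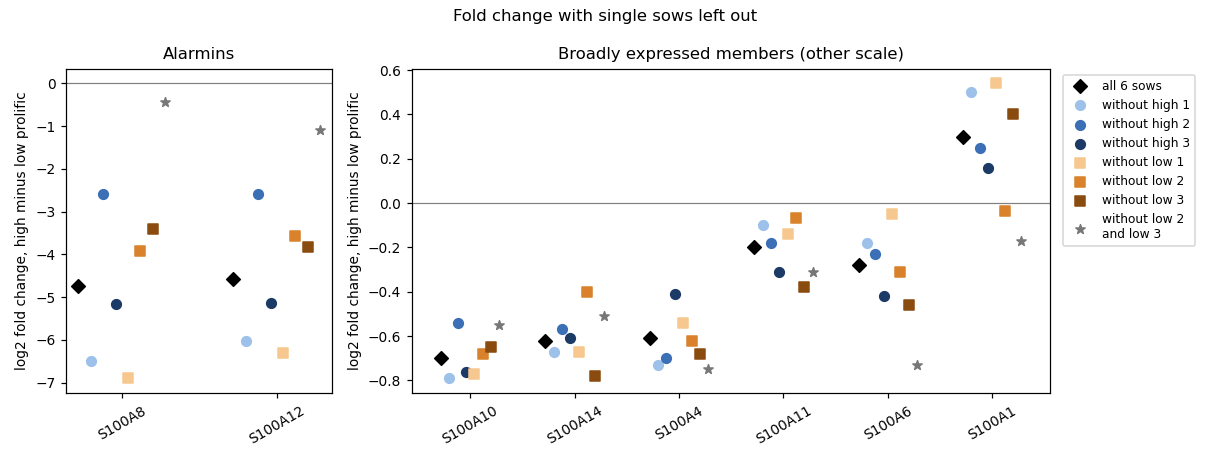
Log2 fold change, high minus low prolific, of each S100A gene with all 6 sows (black diamonds), with each sow left out in turn (blue circles for high, orange squares for low prolific sows) and without both low 2 and low 3 (grey stars); the panels have different vertical scales. S100A8 moves between -6.90 and -2.59 with 1 sow left out and to -0.43 without low 2 and low 3, whereas S100A10 stays between -0.79 and -0.54.

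In the order of genes in RefSeq's Sscrofa11.1, all 10 listed members lie on the same chromosome in a cluster shared with genes of epidermal differentiation. S100A8 and S100A12 are direct neighbours, and S100A11 and S100A10 are direct neighbours at the far end. Of 41 other protein-coding genes between the members or within 3 places of them, 6 could be matched to a row by symbol. PGLYRP3, a peptidoglycan recognition protein 3 places beyond S100A12, was at 79.1, 68.7 and 103 in the high and 124, 301 and 198 in the low prolific sows. Its groups did not overlap, with low 2 and low 3 highest, and its log2 fold change was -1.23 ± 0.35 (SE; limma adjusted p = 0.619), or -0.58 without low 2 and low 3. The other 5 (ILF2, SNAPIN, CHTOP, THEM5 and C2CD4D) had overlapping groups and log2 fold changes between -0.07 and 0.44. Over all genes, 13.5% had groups without overlap in either direction.

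Of the 11 other S100 genes looked for, S100G and S100PBP had a row, and the calprotectin partner S100A9 was among the 9 that matched none and were not analysed here. S100G, the vitamin D-dependent calcium carrier of absorbing epithelia, was at 1258, 535 and 745 in the high and 1590, 4213 and 1734 in the low prolific sows (log2 fold change -1.51 ± 0.46, SE; limma adjusted p = 0.619). Low 2 led, as for S100A14. S100PBP, a nuclear protein that binds S100P, went the other way, at 1116, 1316 and 1503 against 1104, 815 and 981, with a log2 fold change of 0.44 ± 0.16 (limma adjusted p = 0.621) that was 0.24 without low 2 and low 3. Its groups were separated only by the narrow gap between high 1 and low 1.

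Binding partners of S100 proteins were lower in high prolific sows in 14 and higher in 7 of 21 genes with a row, out of 27 listed, with a median log2 fold change of -0.10. At an unadjusted p under 0.05 there were 2 of the 21, ANXA5 and MYH9, both lower, beside 7.92% of all genes. ANXA2, the annexin that S100A10 binds, was at 11843, 11255 and 15306 in the high and 21070, 16141 and 11221 in the low prolific sows, so its groups overlapped where those of S100A10 did not (log2 fold change -0.30 ± 0.25, SE). That value was -0.086 without low 1 and -0.54 without low 3. Low 3 was the highest sow for S100A10 and the lowest for ANXA2. ANXA1, which S100A11 binds, was at 6390 to 7828 in the high and 6889 to 8303 in the low prolific sows. CACYBP, the calcyclin-binding protein, was at 1172 to 1478 and at 1171 to 1557.

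ANXA5, a calcium-dependent phospholipid-binding annexin, was at 6328, 4969 and 5797 against 8368, 9891 and 6760 (log2 fold change -0.54 ± 0.17, SE; limma adjusted p = 0.619). MYH9, the non-muscle myosin heavy chain bound by S100A4, was at 19900, 16569 and 17581 against 20673, 24890 and 26234 (log2 fold change -0.41 ± 0.14, SE; limma adjusted p = 0.619), a value that was -0.20 without low 2 and low 3. In both genes, and in no other of the 21 partners with a row, all 3 high prolific sows lay below the low prolific sows. Of all genes 6.32% did so. TRPV6, an epithelial calcium channel that S100A10 with annexin A2 carries to the membrane, was at 11187, 1391 and 2058 in the high and 3297, 25678 and 26888 in the low prolific sows. Its highest values fell in low 2, low 3 and high 1, the 3 sows that were also highest for S100A8 and S100A12, and its log2 fold change was -2.05 ± 1.08 (SE; limma adjusted p = 0.657), or -0.054 without low 2 and low 3.

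Receptors of alarmins and their adaptors were lower in 9 and higher in 5 of 14 genes with a row, out of 18 listed (median log2 fold change -0.07). TLR4, a receptor of S100A8, was at 1439, 942 and 857 in the high and 732, 433 and 1285 in the low prolific sows. Of the sows with abundant alarmins, low 2 was the lowest for TLR4 and low 3 the second highest. Its adaptor MYD88 was at 1305 to 1407 in all 6 sows. ALCAM, an adhesion molecule that S100B is known to bind, was at 5476, 3904 and 4113 against 6923, 9673 and 7299 (log2 fold change -0.82 ± 0.19, SE; limma adjusted p = 0.619). CD69, an activation antigen of lymphocytes that S100A8 with S100A9 is known to bind, was at 1252, 334 and 405 against 221, 47.7 and 234, higher in all 3 high prolific sows (log2 fold change 2.02 ± 0.76; limma adjusted p = 0.623). That value was 1.28 without low 2 and 1.44 without high 1, where its unadjusted p was no longer under 0.05. ALCAM and CD69 were the 2 genes of the list at an unadjusted p under 0.05, 1 in each direction, beside 3.83% of all genes higher and 4.09% lower.

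Neutrophil markers could be set beside the alarmins for 11 genes with a row, of 29 listed. Of the 11, 0 were at 0 in any library, while MPO, ELANE, CXCR1 and CXCR2 were among the 18 that matched no row and were not analysed here. Every gene of the table reached 10 in 3 or more libraries, so having a row already meant being present. Whether the 18 were too low for the table or lacked a matched symbol is not known. With 7 markers higher and 4 lower in high prolific sows, the median log2 fold change was 0.08. The summed level was 6434, 2402 and 10955 in the high and 13291, 12308 and 4162 in the low prolific sows, and much of it was MMP8, a collagenase of neutrophil granules, at 4278, 168 and 8703 in the high and 11244, 10304 and 1706 in the low prolific sows. MMP8 was thus lowest in high 2, as the alarmins were, and high in low 2, but higher still in low 1 and low in low 3. The mean centred log2 value of these markers, which weights its genes equally, was -0.15, -0.39 and 0.31 in the high and 0.30, -0.11 and 0.03 in the low prolific sows. Low 2 and low 3 did not lead in either measure. CSF3R, the receptor for the neutrophil growth factor G-CSF, was at 385, 102 and 152 in the high and 168, 44.3 and 199 in the low prolific sows. Its lowest value was in low 2, where S100A12 was highest, and its second highest was in low 3, where S100A8 was highest. ITGAM, an integrin of myeloid cells, stayed between 640 and 958.

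Of these 11 neutrophil markers, ITGB2, the shared chain of the leukocyte integrins, had its 2 highest values in low 2 and low 3, at 536, 536 and 444 in the high and 481, 693 and 739 in the low prolific sows. TREM1, an amplifier receptor of myeloid cells, was the only one of the 11 at an unadjusted p under 0.05, beside 7.92% of all genes (10.5, 21.1 and 40.1 against 65.2, 70.3 and 46.8; log2 fold change -1.48 ± 0.49, SE; limma adjusted p = 0.619). Low 1 had a TREM1 value close to that of low 2, unlike its alarmin values. The groups did not overlap in TREM1 and in PGLYRP1, another peptidoglycan recognition protein, 1 marker in each direction. Over all genes, 6.32% lay lower and 7.18% higher without overlap. PGLYRP1 was higher in all 3 high prolific sows (log2 fold change 0.49 ± 0.28, SE; limma adjusted p = 0.673). Its lowest value was in low 3, where S100A8 was highest. The part of neutrophils in the alarmin values was not tested.

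Monocyte and macrophage markers, 16 of 18 with a row, were lower in 12 and higher in 4 (median log2 fold change -0.06). The summed level was 10385 to 13118 in the high and 13190 to 17630 in the low prolific sows, a gap that rested on VCAN, a matrix proteoglycan that monocytes and stroma express. VCAN was at 1902, 1297 and 1577 against 2706, 3861 and 3777 and was the only gene of the list at an unadjusted p under 0.05, beside 7.92% of all genes. Without it, a choice made after seeing the data, the sums overlapped, at 11120, 11821 and 8808 against 10648, 9328 and 13853. CD14, the co-receptor of TLR4, was at 301, 198 and 183 in the high and 221, 494 and 596 in the low prolific sows, so that its 2 highest sows were low 2 and low 3 (log2 fold change -0.85 ± 0.41, SE; limma adjusted p = 0.654). Without low 2 and low 3 it was 0.0065. The macrophage markers CD68 (493 to 572) and CD163 (757 to 1064) varied little between sows. The part of monocytes in the alarmin values was not tested.

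**Figure D4:**
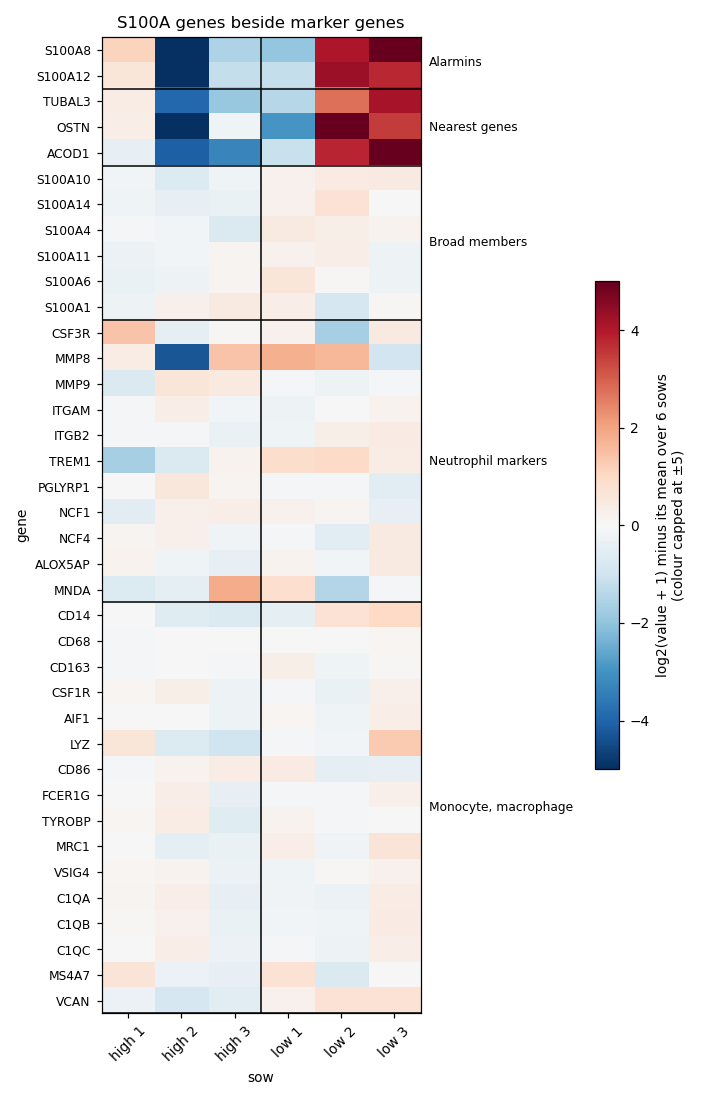
Centred log2 values (log2(value + 1) less its average across all sows) of S100A genes, the 3 genes with symbols nearest to S100A8 after S100A12, and the 11 neutrophil and 16 monocyte and macrophage markers; columns are sows, red is above and blue below the gene's mean, and colours are capped at ±5. S100A8 and S100A12 are dark red in low 2 and low 3 and dark blue in high 2. CSF3R is lowest in low 2 and second highest in low 3, and most macrophage markers are pale.

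Other marker lists were set beside the members. Columnar epithelium markers were divided, 10 higher and 8 lower of 18, with a summed level of 107251 to 114337 in the high and 99942 to 121488 in the low prolific sows. Of these 18, CDH1, CLDN4 and CLDN3, an adhesion molecule and a pair of tight junction claudins, had all 3 high prolific sows below the low prolific sows and 0 had the reverse, beside 6.32% and 7.18% of all genes. CDH1 was at 18895, 15318 and 17948 against 22226, 26177 and 19927, CLDN4 at 7148, 5140 and 7787 against 8175, 14154 and 9094, and CLDN3 at 5860, 5290 and 5572 against 6262, 8832 and 6524. Low 2 was the highest sow in all 3, as for the epithelial gene S100A14, and also in ELF3 and ST14. In other genes of the 18 (KRT7, EHF, GRHL2, ESRP2 and SPINT2) low 2 was instead the lowest sow. Of 16 stratified epithelium markers only SBSN had a row, at 103 to 158. Stromal fibroblast markers were lower in 10 of 12 (sums of 517925 to 703669 and 612032 to 824256, mostly of COL1A1, COL1A2 and COL3A1). Vessel and muscle markers were lower in 10 of 11, and their sums did not overlap, at 26867 to 35336 in the high and 37462 to 42748 in the low prolific sows, the direction shared by S100A10, S100A14 and S100A4. MYH11, the largest part of these sums, was the gene that lay higher (log2 fold change 0.33 ± 0.36, SE). Of the 11 vessel and muscle markers, 5 lay lower without overlap and 0 higher, beside 6.32% and 7.18% of all genes. At an unadjusted limma p under 0.05 there were 3, all lower, beside 4.09% of all genes, and 0 were called after adjustment. Lymphocyte markers were higher in 10 of 12 (sums of 4254 to 7224 and 2360 to 5047) and eosinophil and mast cell markers in 2 of 5. Most of the lymphocyte sums was JCHAIN, at 5879, 2626 and 5961 against 3886, 1323 and 2444. The red cell genes HBB and ALAS2 were both lower, with sums of 2523, 624 and 2346 in the high and 3749, 1691 and 7972 in the low prolific sows. Their parts in the S100A values were not tested.

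Defence genes that inflamed epithelium induces, 12 of 26 with a row, were lower in 8 and higher in 4 (median log2 fold change -0.19). SLPI, a secreted antiprotease, was at 903, 821 and 609 against 2358, 2590 and 3501 (log2 fold change -1.85 ± 0.21, SE, limma adjusted p = 0.493). TNFAIP3, a brake on NF-kappaB, was at 2017, 2004 and 2460 against 3523, 4551 and 3935 (log2 fold change -0.89 ± 0.14, SE, limma adjusted p = 0.564). Of the 12, only these 2 had groups without overlap, both lower, beside 6.32% of all genes. Only these 2 were at an unadjusted limma p under 0.05, beside 4.09% of all genes in that direction. In both genes low 1 stood with the other low prolific sows, which it did not do for S100A8 and S100A12. CEBPB, a transcription factor of myeloid and epithelial inflammation, was at 5295, 3023 and 7775 against 9026, 9480 and 7221 (log2 fold change -0.77 ± 0.34, SE; limma adjusted p = 0.633), a value that was -0.41 without high 2. LCN2, an iron-sequestering protein often induced together with calprotectin, was at 282 to 311 in the high and at 292, 317 and 523 in the low prolific sows, so low 2 lay only just above the high prolific sows. CXCL8, the main neutrophil chemokine, was at 16.7 in low 2, its lowest value, and at 49.8 in low 3, its highest.

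Among 11333 other genes with a symbol and a mean of at least 50, the nearest to S100A8 in centred log2 pattern over the 6 sows was S100A12 (distance 0.68), and the next were TUBAL3 (1.35), OSTN (1.39), ACOD1 (1.47), SERPINB7 (1.72) and IL1R2 (1.88). S100A12 had S100A8, TUBAL3, OSTN and ACOD1 as its nearest, in that order, followed by GJB5 and STEAP2. ACOD1, which makes the macrophage metabolite itaconate, was at 84.9, 5.81 and 10.7 in the high and 53.1, 1627 and 3967 in the low prolific sows. OSTN, the secreted peptide osteocrin, was at 251, 0.477 and 168 against 24.6, 17129 and 2226. TUBAL3, an alpha-tubulin-like gene, was at 32.0, 0.636 and 5.82 against 8.50, 167 and 435. Each of the 3 had its 2 highest values in low 2 and low 3 and its lowest in high 2, and overlapped between the groups. That pattern came with their choice by likeness to the alarmins. TUBAL3, GJB5 and ACOD1, with means of 12.8, 15.2 and 33.8 in the high prolific sows, reached a mean of 50 only through low 2 and low 3.

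The broad members had much closer companions. The nearest genes to S100A10 were ELOVL6, an enzyme that lengthens fatty acids, and HS6ST1, a heparan sulfate sulfotransferase (each at a distance of 0.07), then DCPS, MYL9, HEYL and DNAJB9 at up to 0.11. All 6 had every high prolific sow below every low prolific sow, a separation that the likeness to S100A10 carries with it. The nearest to S100A14 was CKAP4, a membrane protein of the reticulum, at 0.05, followed by SERINC2, SERPINH1 (the collagen chaperone), GALNT12, FKBP7 and SHMT2 at up to 0.08. In all of these low 2 was the highest sow, which the likeness to S100A14 carries with it. The distances, over 6 sows, scale with how widely a gene varies, and they say nothing of shared function or control.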

How the data were processed

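Endometrial RNA of 6 sows was analysed from 1 deposited table. The authors deposited normalized read counts, which are a non-negative signal with decimals; per the submitters' processing notes they used Subread 1.6, featureCounts and edgeR, with roles, normalization, genome build and strand setting not given in the sources used here. Between 40.6% (high 2) and 100% (high 3) of the values under 20 came within 0.1 of a multiple of 1 common step, so reads could not be recovered in every library and count models were left out. All 14262 genes of the table reached 10 in 3 or more libraries. Symbols came from a table of Ensembl identifiers, which matched 11977 genes, and gene order from RefSeq's Sscrofa11.1.

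Groups followed the labels. limma 3.58.1 in R 4.3.3 was fitted on log2(value + 1) over all genes with a variance trend and robust moderation (two-sided, Benjamini-Hochberg, threshold 0.05), and was tested on simulated data. The 19 alternatives are described at the end. The rule for named genes took all members and other S100 genes, up to 4 genes of each list by p, genes set by name, the 6 nearest in pattern, and neighbours within 3 places; not all are printed, and other genes (MMP8, ITGAM, CD68, CD163, MYD88, LCN2, CXCL8) were named after their values were seen. The members, lists and alternatives were chosen with earlier results of these data known. Results on 3 related genes are not reported here, and list counts and sums leave them out. Promoter and protein sequences were not used here.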

Additional observations from a re-analysis of the deposited data

How the results depend on the processing

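The fit was repeated under 19 alternatives: pseudocounts of 0.5 and 8, filters (a mean of at least 200, or 10 or more in at least 3 libraries, which removed 0 genes), equal column sums, median-of-ratios and quantile scaling, no variance trend, no robust moderation, library quality weights, parity as a covariate, the label number as a block, each sow left out, and low 2 and low 3 left out together, where the lone low prolific sow is assumed to vary like the others. No S100A member was called under any of them, with adjusted p between 0.214 and 1.00 by limma. Leaving out 1 sow gave between 0 and 4 called genes, 4 without low 1 and 1 without low 2, against 0. The 1129 genes at an unadjusted p under 0.05 became 466 without high 2, 1872 without low 1, 632 without low 2, 631 without low 2 and low 3, and 615 with the replicate block. The label numbers gave no sign of pairing: deviations from the group means of same-numbered sows correlated at -0.378, -0.163 and -0.357 across genes. With 1 high and 1 low prolific sow per number, the block cannot change a log2 fold change, only its SE. With the block the SE went from 2.51 to 2.75 for S100A8 and from 0.16 to 0.18 for S100A10. It fell from 0.73 to 0.27 for HBB and from 0.76 to 0.45 for CD69, and 0 genes were called. Of the log2 fold changes of the members only that of S100A1 changed sign, to -0.034 without low 2 (up to 0.54 with another sow left out) and -0.17 without low 2 and low 3. Without low 2 and low 3, the log2 fold change of CD14 turned to 0.0065, that of ITGB2 to 0.067 and that of OSTN to 0.64. With 1 sow left out, CSF3R ran from -0.0081 without low 2 to 1.08, EPCAM up to 0.18 and the median of the neutrophil markers up to 0.19. EPCAM turned to -0.054 with library weights, -0.12 without high 1 and -0.076 without low 3. The median of the neutrophil markers turned to -0.32 with the filter at a mean of 200, -0.11 without high 3 and -0.12 without low 2. The filter at 200 left out S100A4. The cause of these shifts was not tested. Depth was unknown, so the precision of the low values, such as S100A8 in high 2, cannot be given.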
